A study of Mus musculus with 12 samples.

Results

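The 10 genes described here belong to the vascular endothelial growth factor (VEGF) and Tie signalling system of blood vessels, or mark the endothelial cells that line them. They were chosen by name and not by their values: the ligands Vegfa and Angpt2, the receptors Kdr, Flt1 and Tek, the VEGF-responsive gene Esm1, and the endothelial genes Pecam1, Cdh5, Ehd3 and Emcn. All 10 were measured, among 19936 genes that had a probe set naming a single gene, and all 10 passed the filter on low values that left 16480 genes for testing. RNA from frozen kidneys of 12 mice aged 6 months was hybridised to 12 arrays, 3 per group. FVB mice were non-diabetic with both copies of D6, a receptor that binds and removes inflammatory chemokines. D6 mice were non-diabetic and homozygous for a deletion of D6 (gene Ackr2) that was carried on C57BL/6 and crossed to FVB for at least 10 generations. OVE mice were diabetic FVB mice of the OVE26 line with intact D6, and OVE-D6 mice were diabetic and homozygous for the D6 deletion. In OVE26 mice a calmodulin transgene expressed in the insulin-producing cells of the pancreas causes the diabetes, so insulin deficiency drives the model. All groups shared the FVB background, but segments of C57BL/6 sequence near the D6 locus can remain in both knockout groups. The sex of the mice is not given in the sources used here.

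In the kidney, VEGF-A is made mainly by podocytes, the epithelial cells that wrap the glomerular capillaries, and by tubule cells, and it acts on receptors on the neighbouring endothelium. Kdr (VEGF receptor 2) carries most of the survival and growth signal, while Flt1 (VEGF receptor 1) binds VEGF-A tightly and signals weakly, so that it can act as a trap. Tek encodes Tie2, the receptor for the angiopoietins, of which Angpt1 stabilises vessels and Angpt2 can oppose it. Esm1 (endocan) is a proteoglycan secreted by endothelial cells, and its transcription is known to follow VEGF receptor 2 signalling.

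Esm1, Kdr and Vegfa were the members with the 3 lowest differences between OVE and FVB kidneys, and the 250 bases upstream of their annotated starts are shown to let their promoters be compared. The sequences are from RefSeq on assembly GRCm38.p6, written 5′ to 3′ on the gene's strand, with capitals marking matches on either strand to the ETS core GGAAG, the hypoxia response core ACGTG or the GATA motif AGATAA. Entries were found for 7 of the 10 members, and Pecam1, Cdh5 and Angpt2 had none. The Esm1 window is chr13:113209409-113209658 on the + strand, the Kdr window chr5:75978456-75978705 on the - strand and the Vegfa window chr17:46032378-46032627 on the - strand, the first of 2 entries for that gene.
Esm1: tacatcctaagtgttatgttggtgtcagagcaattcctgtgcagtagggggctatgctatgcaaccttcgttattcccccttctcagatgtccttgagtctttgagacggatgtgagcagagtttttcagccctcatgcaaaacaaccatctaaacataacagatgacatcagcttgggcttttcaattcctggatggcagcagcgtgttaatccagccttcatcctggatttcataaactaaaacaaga
Kdr: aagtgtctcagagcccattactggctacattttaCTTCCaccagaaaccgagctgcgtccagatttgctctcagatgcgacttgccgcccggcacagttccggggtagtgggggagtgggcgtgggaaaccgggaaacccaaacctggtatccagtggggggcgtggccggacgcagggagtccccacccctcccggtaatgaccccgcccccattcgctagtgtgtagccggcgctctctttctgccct
Vegfa: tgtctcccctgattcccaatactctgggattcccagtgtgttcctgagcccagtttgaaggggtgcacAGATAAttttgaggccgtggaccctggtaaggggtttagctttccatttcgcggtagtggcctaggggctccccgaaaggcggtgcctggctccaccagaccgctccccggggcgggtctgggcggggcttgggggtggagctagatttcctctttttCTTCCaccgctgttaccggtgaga
The Esm1 window held no match to any of the 3 motifs. The Kdr window held 1 ETS core at position -216 from the start. The Vegfa window shown held 1 ETS core at -24 and 1 GATA motif at -182, and neither overlapped the other. The other Vegfa window, chr17:46025164-46025413 on the - strand, held 1 ETS core at -10 and 1 hypoxia response core at -211. That was the only match to ACGTG in the windows found for the members. On the gene's strand this window lies downstream of the first Vegfa start. Its letters therefore fall inside the gene as read from that start, and need not be promoter sequence. Over 32851 promoter windows of the same length, 64.1% held the ETS core, 16.6% the hypoxia response core and 9.99% the GATA motif, so a match to the ETS core was the usual case. Among the other members, the Flt1 window held 3 ETS cores and the Emcn window 2, while the Ehd3 and Tek windows held no match. These matches describe letters in the windows only.

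Values are log2 probe-set values, so a difference of 1 is a doubling, and differences are given with their SE unless an SD is named. A gene was called when its limma p, adjusted by the Benjamini-Hochberg method over all 16480 tested genes, was under 0.05. Each member was read by 1 probe set. Every member lay above 5.93 on all 12 arrays, the level under which 95% of 1027 olfactory receptor genes had their means. Markers of the proximal tubule and of the loop and distal tubule had array means of 12.27 to 12.61 and 11.30 to 11.84, so the tissue read as kidney. Ackr2 itself lay between 6.74 and 7.04 on all arrays, at -0.10 ± 0.08 (SE) in D6 against FVB and 0.03 ± 0.08 in OVE-D6 against OVE (limma adjusted p = 0.999 and 0.899). Whether the probe set lies in the deleted part was not known, so this does not check the labels. A principal component analysis gave a first component with 35.9% of the variance, on which the scores of OVE replicates 1 and 2 were 27.0 and 29.4. OVE replicate 3 scored 6.9, near the range of the other 9 arrays, -15.1 to 5.2. Because OVE replicate 3 stood apart from the other OVE arrays, values without it are given wherever it changed the call of a member. For the other listed genes such values are not all given. The number of arrays limits the precision.

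**Figure D1:**
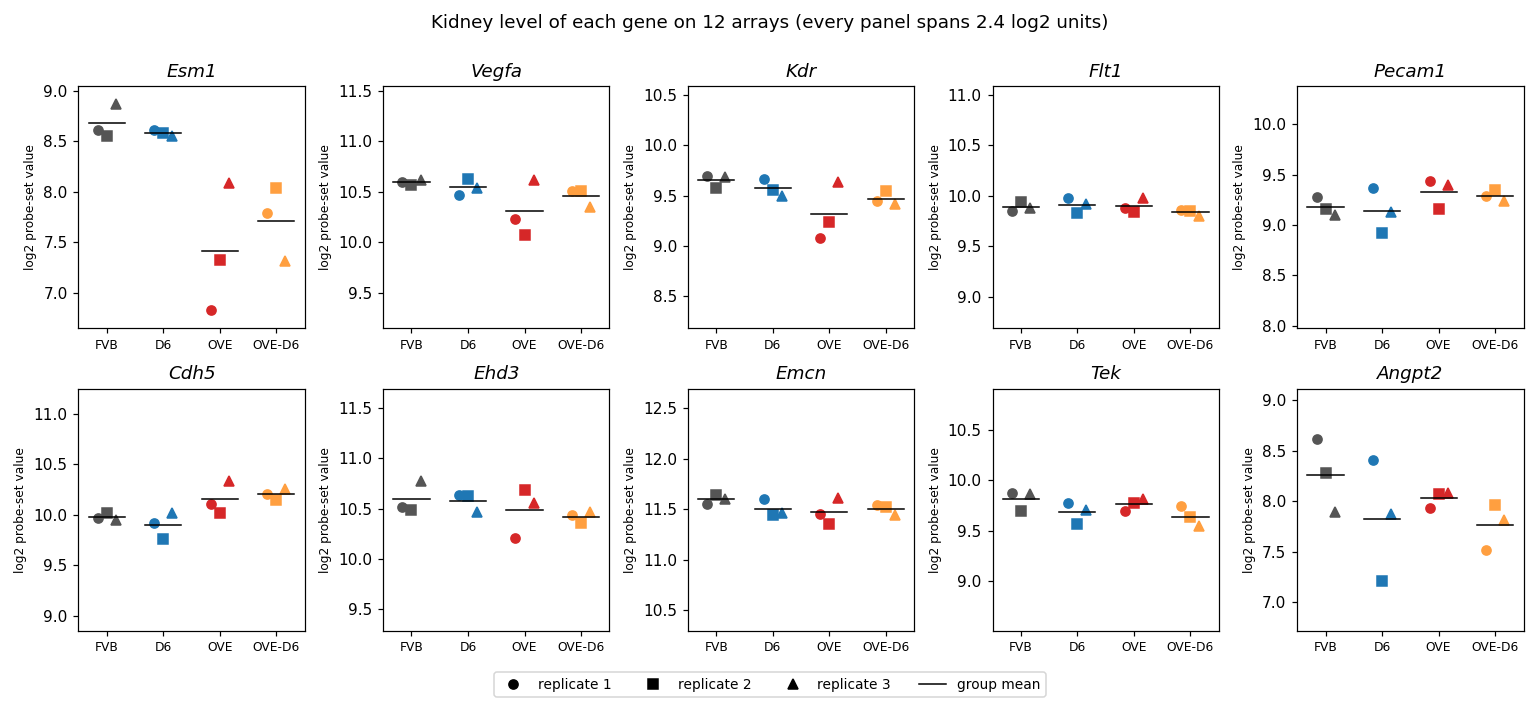
Log2 probe-set value of each of the 10 genes (vertical axis) on every array, by group (horizontal axis), with replicates as separate symbols and a bar at the group mean. Esm1 lay between 6.82 and 8.08 on the OVE arrays and between 7.31 and 8.03 on the OVE-D6 arrays, below all 6 non-diabetic arrays, while Flt1 stayed between 9.80 and 9.98 on all 12.

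Esm1 showed the widest range of the 10 genes. It read 8.61, 8.56 and 8.88 on the FVB arrays and 8.61, 8.58 and 8.55 on the D6 arrays. It read 6.82, 7.32 and 8.08 on the OVE arrays and 7.79, 8.03 and 7.31 on the OVE-D6 arrays. All 6 diabetic arrays were thus below all 6 non-diabetic arrays, and the OVE arrays were spread widely, with an SD of 0.63 against 0.17 in FVB, 0.03 in D6 and 0.37 in OVE-D6 (n = 3 each). In order of group mean, OVE (7.41) and OVE-D6 (7.71) were neighbours whose values overlapped, as were D6 (8.58) and FVB (8.68). The gap between OVE-D6 and D6 was 0.87, or 2.36 times the larger SD, and there the values did not overlap. In no other member were 2 groups adjacent in this order free of overlap.

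Diabetes with intact D6, the OVE against FVB comparison, lowered Esm1 and called no other member. Esm1 fell by 1.27 ± 0.25 on the log2 scale (SE, n = 3 per group, 95% interval -1.82 to -0.72), a 2.41-fold lower level with a limma adjusted p of 0.0136. The difference ranked 7th from the lowest of all tested genes. Of all tested genes, 7.28% were called in this comparison, 4.9% as higher and 2.38% as lower, and 13.5% had OVE values all below the FVB values, as Esm1 did. The Esm1 call was lost without FVB replicate 3 (-1.17, adjusted p = 0.0561), without OVE replicate 2 (-1.23, adjusted p = 0.0570) and when only the OVE and FVB arrays were fitted (adjusted p = 0.0565). In bulk tissue, fewer cells of a type and less RNA per cell cannot be told apart.

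Vegfa, the ligand, read 10.60, 10.57 and 10.62 on the FVB arrays and 10.23, 10.07 and 10.62 on the OVE arrays. OVE replicates 1 and 2 were below every FVB array, and OVE replicate 3 was level with the highest of them. The difference was -0.29 ± 0.12 (SE), with a limma adjusted p of 0.151. Kdr, the main signalling receptor, read 9.70, 9.57 and 9.68 in FVB and 9.08, 9.24 and 9.63 in OVE. Here too OVE replicates 1 and 2 were below every FVB array, while OVE replicate 3 lay within the FVB range. Its difference was -0.33 ± 0.12, with an adjusted p of 0.105. Neither gene was called on the deposited scale with all 12 arrays. Both had an unadjusted limma p under 0.05 (0.0274 for Vegfa and 0.0147 for Kdr), as had 24.1% of all tested genes. Without OVE replicate 3 both were called, Vegfa at -0.45 (adjusted p = 0.00653) and Kdr at -0.49 (adjusted p = 0.00405). The number of all tested genes called also changed when 1 array was left out, so these 2 calls are not particular to the members.

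The other receptors and the angiopoietin were not called in OVE against FVB. Flt1 read 9.85, 9.93 and 9.88 in FVB and 9.87, 9.83 and 9.98 in OVE, a difference of 0.01 ± 0.07 with a 95% interval of -0.14 to 0.16. Tek differed by -0.05 ± 0.08, with an interval of -0.23 to 0.13. These intervals bound a change in either receptor more tightly than in Angpt2, which read 8.62, 8.28 and 7.89 in FVB and 7.93, 8.07 and 8.08 in OVE. The FVB arrays alone spanned 0.73 for Angpt2, and the difference was -0.24 ± 0.25 (limma adjusted p = 0.606).

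The structural endothelial genes were not called in OVE against FVB either. Pecam1 (CD31) and Cdh5 (VE-cadherin), adhesion proteins of endothelial junctions, differed by 0.15 ± 0.11 and 0.18 ± 0.09 (limma adjusted p = 0.427 and 0.272). Ehd3, a membrane trafficking gene enriched in glomerular endothelium, differed by -0.11 ± 0.12. Emcn (endomucin), a sialoglycoprotein of the endothelial surface, differed by -0.13 ± 0.08 (adjusted p = 0.369). Over the 10 members the median difference was -0.12, against -0.02 for all tested genes, with 7 members negative and 3 positive.

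**Figure D2:**
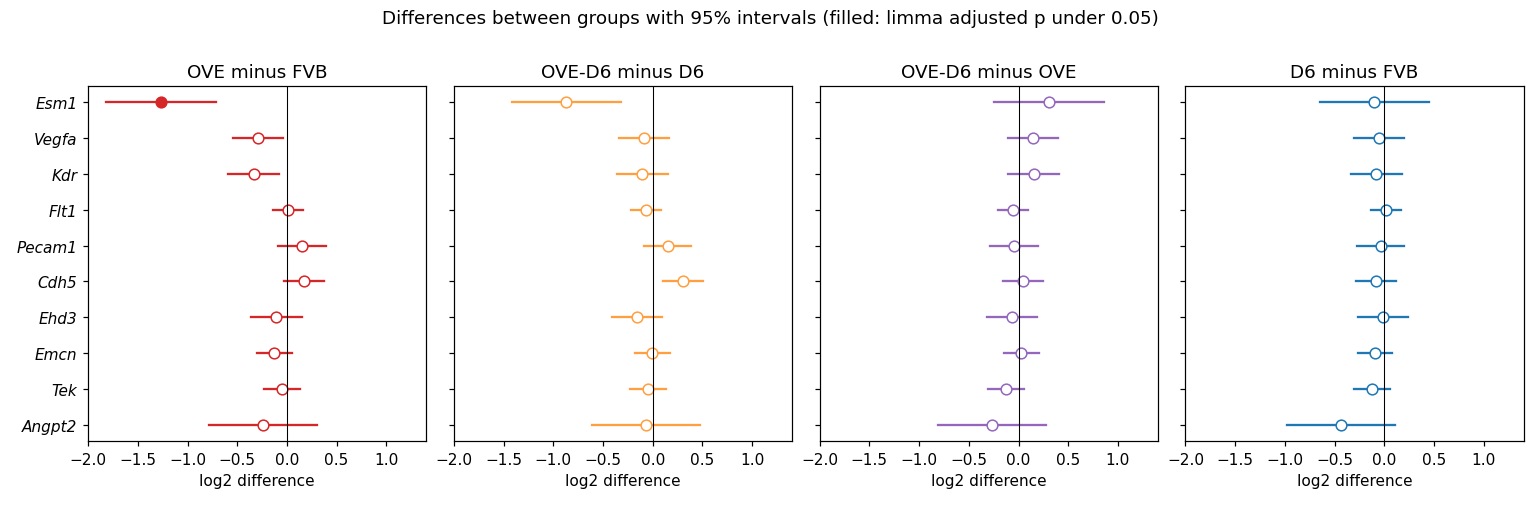
Log2 difference of each gene (horizontal axis) in 4 comparisons (panels), with lines for the 95% interval from limma and filled points for an adjusted p under 0.05. Esm1 in OVE minus FVB, at -1.27, is the sole filled point, and its interval in OVE-D6 minus D6, -1.42 to -0.32, also lies below 0.

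Diabetes without D6, the OVE-D6 against D6 comparison, called no member, where 0.285% of tested genes were called by limma. At an unadjusted p under 0.05 there were 2 members, Esm1 and Cdh5, and 9.98% of all tested genes. Esm1 was 1.82-fold lower (-0.87 ± 0.25, 95% interval -1.42 to -0.32, limma adjusted p = 0.226). Cdh5 read 9.92, 9.76 and 10.01 on the D6 arrays and 10.21, 10.14 and 10.26 on the OVE-D6 arrays, a difference of 0.31 ± 0.09 (adjusted p = 0.244). In Esm1 and Ehd3 the OVE-D6 values lay below all D6 values, and in Cdh5 above them. Of all tested genes, 8.68% had such values all below and 7.72% all above. Ehd3 read 10.64, 10.62 and 10.46 in D6 and 10.44, 10.35 and 10.46 in OVE-D6, so its highest diabetic and lowest non-diabetic arrays were nearly equal, and its difference was -0.16 ± 0.12. Vegfa and Kdr differed by -0.09 ± 0.12 and -0.10 ± 0.12. The median over the members was -0.07, against -0.01 for all tested genes.

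Whether the diabetes effect depended on D6 was tested by the interaction, which called 0 members and 0% of tested genes by limma. At an unadjusted p under 0.05 there were 0 members and 1647 of all genes, or 9.99%. Without OVE replicate 3 it called 377 genes and still 0 members. For Esm1 the diabetes effect without D6 minus the effect with D6 was 0.40 ± 0.36, with a 95% interval of -0.38 to 1.18 (limma adjusted p = 0.777). For Kdr it was 0.23 ± 0.17 and for Vegfa 0.20 ± 0.16. The interval for Esm1 spans both no difference and a difference nearly as large as the OVE against FVB effect itself, so these arrays do not settle whether the effects differed.

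Averaged over both D6 genotypes, diabetes called 2 members, Esm1 as lower and Cdh5 as higher, where 7.65% of tested genes were called, 3.16% as lower and 4.49% as higher. Esm1 fell by 1.07 ± 0.18 (SE, 6 against 6 arrays), a 2.10-fold lower level (limma adjusted p = 0.00565). Its 6 diabetic values were all below its 6 non-diabetic values, as in 1.69% of tested genes. This call held in all 21 alternatives run for it, with adjusted p up to 0.0180. Cdh5 rose by 0.24 ± 0.07, or 1.18-fold (limma adjusted p = 0.0440), with overlapping groups. The Cdh5 call was lost when any array but D6 replicate 3 or OVE replicate 2 was left out (0.19 to 0.26, adjusted p 0.0530 to 0.105), without the filter on low values (0.0538) and with arrays centred on their medians (0.0710). Kdr and Vegfa, at -0.22 ± 0.08 and -0.19 ± 0.08, were not called (adjusted p = 0.133 and 0.184) but were without OVE replicate 3 (-0.30 and -0.27, adjusted p = 0.00806 and 0.0123). Here too the number of all tested genes called changed when 1 array was left out. The other 6 members ranged from -0.15 ± 0.18 for Angpt2 to 0.15 ± 0.08 for Pecam1, none of them called.

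Loss of D6 moved no member past the threshold in either state. In OVE-D6 against OVE, 0 of the 10 were called by limma and 0 had an unadjusted p under 0.05, where 0.231% of tested genes were called and 14.8% had such an unadjusted p. The Esm1 values of the 2 groups overlapped, and the difference was 0.30 ± 0.25 (95% interval -0.25 to 0.86, adjusted p = 0.621). Vegfa and Kdr each differed by 0.15 ± 0.12, with intervals of -0.10 to 0.40 and -0.11 to 0.41. These differences moved with single OVE arrays. Esm1 was at 0.01 without OVE replicate 1 and 0.64 without OVE replicate 3, Vegfa at 0.03 without OVE replicate 2 and 0.30 without OVE replicate 3, and Kdr at 0.03 without OVE replicate 1 and 0.31 without OVE replicate 3, none of them called. The largest negative differences were those of Angpt2 (-0.27 ± 0.25) and Tek (-0.12 ± 0.08). In D6 against FVB, 0 members were called and 0 had an unadjusted p under 0.05, where 0.0121% of tested genes were called and 3.82% had such an unadjusted p. There 9 of the 10 differences were negative, with a median of -0.08 against 0.00 for all genes. The largest was that of Angpt2, which read 8.41, 7.21 and 7.87 on the D6 arrays, at -0.44 ± 0.25 (95% interval -0.98 to 0.11, adjusted p = 0.999). Its D6 arrays spanned 1.19 and overlapped the FVB arrays.

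The rest of the pathway was described through lists of genes other than the 10. Among 6 other ligands, 1 was called in OVE against FVB. Vegfd, a ligand of the lymphatic receptor, was 0.59 ± 0.15 higher (limma adjusted p = 0.0325) and read 8.06, 8.51 and 8.38 in FVB and 8.75, 9.18 and 8.80 in OVE. That call was lost without FVB replicate 1, FVB replicate 3 or OVE replicate 2 (0.46 to 0.63, adjusted p 0.0765 to 0.123). Averaged over genotype, Vegfd was 0.38 ± 0.10 higher (adjusted p = 0.0486) and Vegfb, a ligand of Flt1, 0.29 lower (-0.29 ± 0.07, adjusted p = 0.0318). Vegfb read 9.99 to 10.43 on the non-diabetic arrays and 9.79 to 9.97 on the diabetic arrays, so the groups did not overlap. Both averaged calls were lost in most of the fits that left out 1 array (adjusted p up to 0.0687 for Vegfb and 0.115 for Vegfd). Among 7 other receptors and partners, 0 were called in OVE against FVB by limma and 1 had an unadjusted p under 0.05, as had 24.1% of all tested genes. That gene was Nrp2, a neuropilin co-receptor, at 0.23 ± 0.09 (adjusted p = 0.141), with the OVE values all above the FVB values. Nrp1, the other neuropilin, differed by -0.21 ± 0.11. Flt4, the receptor for Vegfd, was called averaged over genotype at 0.24 ± 0.07 (adjusted p = 0.0462), a call lost in most fits that left out 1 array.

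Among 11 other VEGF-responsive and tip cell genes, 1 was called higher and 1 lower in OVE against FVB. Dll4, a Notch ligand of sprouting endothelial cells, fell by 0.35 ± 0.07 (limma adjusted p = 0.0162). It read 8.18, 8.15 and 8.21 in FVB and 7.82, 7.75 and 7.93 in OVE, without overlap. The call was lost without FVB replicate 3 (-0.33, adjusted p = 0.0622) and without OVE replicate 2 (-0.31, adjusted p = 0.0691). Dll4 read 8.09, 7.97 and 7.91 in OVE-D6 and 7.98, 7.97 and 7.89 in D6, so these groups overlapped. Its D6 values were also all below its FVB values, at -0.24 ± 0.07, a difference that was not called. The interaction for Dll4, which includes that difference, was 0.39 ± 0.10 (adjusted p = 0.264). Adm (adrenomedullin), a vasodilator peptide also listed among hypoxia-inducible genes, rose by 0.67 ± 0.13 (adjusted p = 0.0124). Adm read 7.77 to 8.13 on the non-diabetic arrays and 8.31 to 8.86 on the diabetic arrays, and its call held in all 22 alternatives. Of 16 hypoxia-inducible genes, Adm was the 1 called in OVE against FVB. Aldoa, a glycolytic enzyme, was also called averaged over genotype (0.23 ± 0.06, adjusted p = 0.0374), which most fits without 1 array lost.

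No other pan-endothelial marker was called lower alongside Esm1. Among 27 other pan-endothelial markers, 23 had positive differences in OVE against FVB, with a median of 0.10. Of them 3 were called higher and 0 lower by limma, and 7 had an unadjusted p under 0.05, where 24.1% of all tested genes had one. Thbd (thrombomodulin), an anticoagulant surface protein, rose by 0.54 ± 0.09 (adjusted p = 0.00730) and read 9.23, 9.61 and 9.43 in OVE against 8.84, 8.93 and 8.89 in FVB. Fli1, an ETS transcription factor, and Cd93, a surface lectin, each rose by 0.38 ± 0.09 (adjusted p = 0.0237 and 0.0256). Fli1 read 8.61, 8.56 and 8.36 in OVE and 8.06, 8.09 and 8.12 in OVE-D6, where its FVB range was 8.02 to 8.20. Cd93 read 9.73 to 9.86 in OVE and 9.47 to 9.59 in OVE-D6. Whether these rises came from endothelial or other cells was not tested. The Fli1 call was lost without FVB replicates 1 or 3 or OVE replicates 1 or 2 (adjusted p up to 0.0969), and the Cd93 call without FVB replicates 2 or 3 or OVE replicates 1 or 2 (up to 0.0997). Averaged over genotype, 26 of the 27 were positive and Cd93, Thbd and Adgrl4 were called higher, with Cd93 at 0.39 ± 0.06 (adjusted p = 0.00458) in all 21 alternatives. Thbd (0.27 ± 0.07) and Adgrl4 (0.19 ± 0.05) kept that call in 14 and 7 of the 21. The mean of the 27 markers lay between 8.45 and 8.54 on the FVB arrays, 8.34 and 8.50 on the D6 arrays, 8.58 and 8.63 on the OVE arrays, and 8.52 and 8.57 on the OVE-D6 arrays. Thbd was the 1 pan-endothelial marker called in OVE-D6 against OVE, at -0.58 ± 0.09 (adjusted p = 0.0393), and that call held in 9 of 22 alternatives. OVE-D6 values of Thbd, 8.81, 8.81 and 8.92, lay within the range of the non-diabetic arrays, 8.78 to 8.93, and its interaction was -0.54 ± 0.13 (adjusted p = 0.225).

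**Figure D3:**
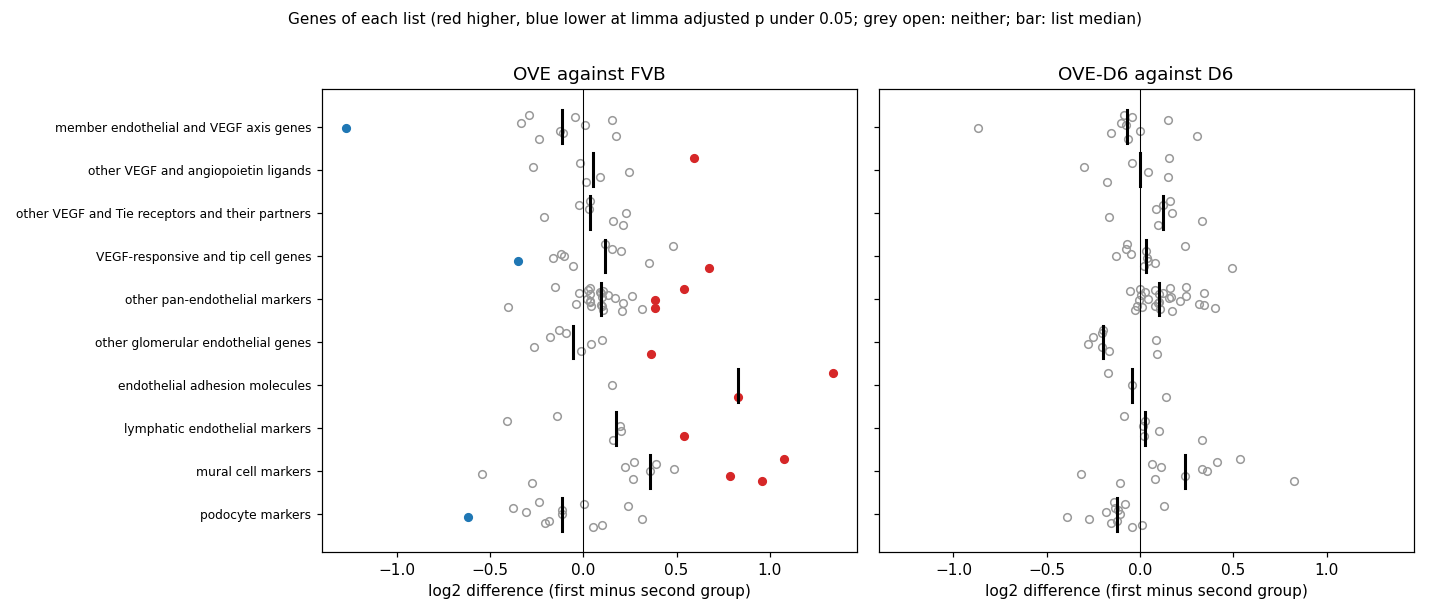
Log2 difference (horizontal axis) of each tested gene in 10 gene lists (rows) for OVE against FVB (left) and OVE-D6 against D6 (right), with called genes in red (higher) or blue (lower) and a bar at the list median. The pan-endothelial markers have a median of 0.10 in both panels, while Esm1 lies at -1.27 and -0.87 in the top row.

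Among 8 other genes of glomerular endothelium, 1 was called higher in OVE against FVB, Boc at 0.36 ± 0.10 (limma adjusted p = 0.0421, kept in 7 of 22 alternatives). The rest ranged from -0.26 for Igfbp5 to 0.10 for Plat, none of them called. The mean of this list was 8.83 to 8.88 on the FVB arrays and 8.79 to 8.87 on the D6 arrays. It was 8.81 to 8.86 on the OVE arrays and 8.62 to 8.75 on the OVE-D6 arrays. Averaged over genotype 1 was called lower, Sema5a at -0.21 ± 0.06 (adjusted p = 0.0462, kept in 9 of 21). The leukocyte adhesion molecules moved more. Of 3 tested, Vcam1 rose by 1.34 ± 0.24 (adjusted p = 0.00934) and Icam1 by 0.83 ± 0.11 (adjusted p = 0.00239) in OVE against FVB, in all 22 alternatives, while Sele lay near the background level at 5.62 to 6.25. Vcam1 read 9.17, 9.92 and 8.65 in OVE and 7.68, 8.17 and 7.78 in OVE-D6, a difference of -1.37 ± 0.24 (adjusted p = 0.0475, kept in 5 of 22 alternatives). Icam1 read 9.06, 9.36 and 9.02 in OVE and 8.66, 8.76 and 8.58 in OVE-D6 and was not called between them, but it was called averaged over genotype (0.48 ± 0.08, adjusted p = 0.00426). The interactions of Vcam1 and Icam1 were -1.51 ± 0.34 and -0.69 ± 0.15 and were not called (adjusted p = 0.206 and 0.196). Of 6 lymphatic markers, Lyve1 alone was called in OVE against FVB, as higher (0.54 ± 0.13, adjusted p = 0.0304, kept in 14 of 21 alternatives). The rest went both ways, from -0.41 ± 0.27 for Prox1 to 0.20 ± 0.16 for Mmrn1. The cells behind the Vcam1, Icam1 and Lyve1 differences were not tested.

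Markers of cells beside the endothelium moved in the same kidneys. Of 11 mural cell markers, 3 were called higher and 0 lower in OVE against FVB, namely Tagln (1.07 ± 0.22), Acta2 (0.96 ± 0.19) and Des (0.78 ± 0.14), contractile and cytoskeletal genes of smooth muscle and pericytes (limma adjusted p = 0.0143, 0.0124 and 0.00965). The Tagln call was lost without FVB replicate 3 or OVE replicate 2 (adjusted p = 0.0509 and 0.0629) and the Acta2 call without OVE replicate 2 (0.0528). Averaged over genotype 5 rose and 1 fell, with Rgs5, a pericyte marker, at 0.34 ± 0.07 and Kcnj8, a pericyte potassium channel gene, at -0.43 ± 0.12 (adjusted p = 0.0108 and 0.0434). The mean of the mural list was 8.65 to 8.77 on the FVB arrays and 8.97 to 9.12 on the OVE arrays. It was 8.51 to 8.69 on the D6 arrays and 8.72 to 8.95 on the OVE-D6 arrays, which overlapped FVB and lay below every OVE array. Of 13 podocyte markers, the source of glomerular VEGF-A, 1 was called, Nphs1 (nephrin), which fell by 0.62 ± 0.13 (adjusted p = 0.0186). That call was lost without FVB replicates 1 or 3 or OVE replicate 2 (-0.47 to -0.60, adjusted p 0.0550 to 0.0670). Averaged over genotype Nphs1 fell by 0.51 ± 0.09 (adjusted p = 0.00990), in all 21 alternatives. The mean of the podocyte list was 9.06 to 9.07 in FVB, 9.11 to 9.16 in D6, 8.91 to 9.01 in OVE and 8.98 to 9.04 in OVE-D6. Of 7 loop and distal tubule markers, Pvalb, Egf and Slc12a3 were called lower in OVE against FVB (-0.84, -0.69 and -0.38). The rest of that list ranged from -0.27 for Slc12a1 to 0.33 for Aqp2. Of 6 proximal tubule markers, Lrp2 was called lower (-0.35), and the rest ranged from -0.23 for Cubn to 0.05 for Slc5a12. Of all tested genes, 2.38% were called lower. The part of these cell types in the member differences was not tested.

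The OVE arrays with the lowest Esm1, Vegfa and Kdr were also those with the highest macrophage markers. Of 11 macrophage markers, 10 were called higher in OVE against FVB by limma, with a median of 1.38. Relative to the FVB mean, the mean of the list was 1.75 and 1.73 higher on OVE replicates 1 and 2 and 0.66 higher on OVE replicate 3. It was 0.10 to 0.40 higher on the OVE-D6 arrays and 0.25 to 0.53 higher on the D6 arrays. On these arrays Esm1 read 7.31 to 8.03 in OVE-D6 and 8.55 to 8.61 in D6, a difference that was not called (limma adjusted p = 0.226). In OVE-D6 against OVE, 3 of the 11 were called lower, Cd14 (-1.22), Mrc1 (-1.23) and Lyz2 (-1.93). Cd163 was below the filter and the other markers of that list were tested. The part of macrophage RNA in the OVE against FVB differences was not tested.

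The members were also set against the other endothelial genes of the same kidney, by taking from each log2 value the mean of the 27 other pan-endothelial markers on that array, a step chosen after seeing the data. On this scale, with the FVB mean at 0, Esm1 averaged -1.38 ± 0.61 (SD, n = 3) in OVE and -1.02 ± 0.38 in OVE-D6, and -0.02 ± 0.07 in D6. Kdr averaged -0.44 ± 0.26 and -0.23 ± 0.09 in the 2 diabetic groups, and Vegfa -0.40 ± 0.26 and -0.19 ± 0.10. Because VEGF-A is made mainly by podocytes and tubule cells, this reference does not adjust Vegfa for the cells that make it. In 4 of the 10 members, Esm1, Kdr, Emcn and Tek, all 6 diabetic arrays were below all 6 non-diabetic arrays, as in 6.57% of tested genes. Because the reference itself was higher in the diabetic groups, the median of all tested genes moved to -0.12 in OVE against FVB and -0.13 averaged over genotype. Relative to the median of all genes, Esm1 differed by -1.25, Kdr by -0.32 and Vegfa by -0.27 in OVE against FVB, whichever reference was used. The reference takes the same amount from every gene on an array, so calls across all genes also moved toward lower. With it limma called Esm1 and Kdr as lower in OVE against FVB (adjusted p = 0.00889 and 0.0327), where 7.8% of tested genes were called lower. Averaged over genotype it called Esm1, Kdr, Vegfa, Emcn and Flt1 as lower, the latter 4 at -0.34, -0.31, -0.18 and -0.15 (adjusted p = 0.0149, 0.0266, 0.0393 and 0.0497), where 22.9% of tested genes were called lower. Cdh5 was no longer called (0.12, adjusted p = 0.149).

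**Figure D4:**
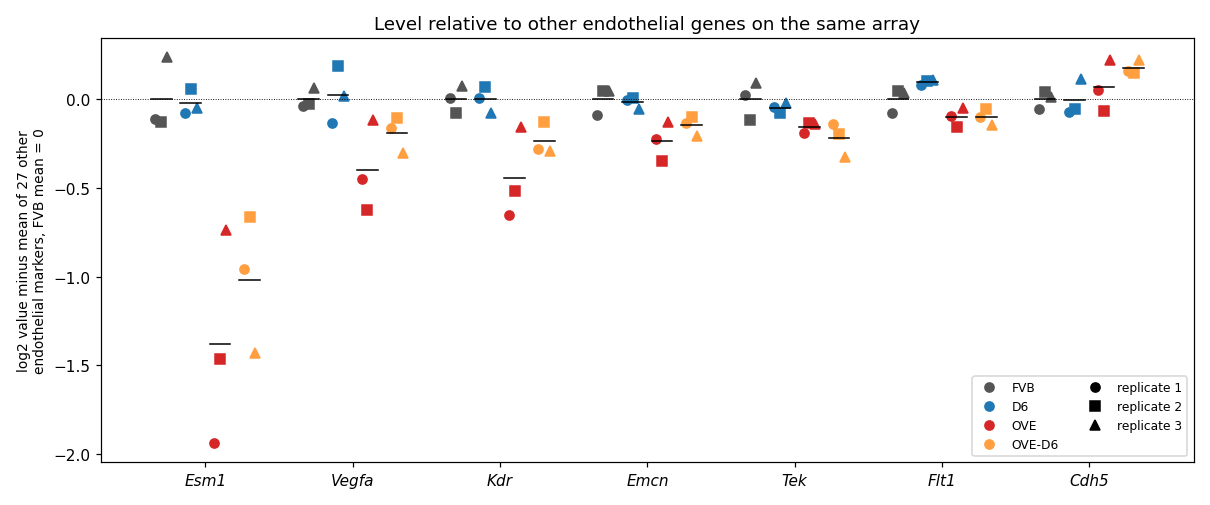
Log2 value of 7 of the genes minus the mean of 27 other endothelial markers on the same array (vertical axis, FVB mean at 0), by gene and group, with replicates as separate symbols and bars at group means. Esm1 lies between -1.94 and -0.67 on the diabetic arrays, and Kdr lies between -0.65 and -0.13 on them.

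The genes whose pattern over the 12 arrays was most like that of Esm1 were found by the root-mean-square difference of log2 values, each centred on the gene's mean. The nearest 5 were Sfrp2 (0.28), Tmem64 (0.32), Alb (0.32), Slc35f1 (0.33) and Ncam2 (0.34), where Esm1 itself deviated by 0.63 from its own mean. Sfrp2, a secreted Wnt antagonist, read 9.39, 9.43 and 9.62 in FVB and 8.40, 8.59 and 8.88 in OVE. Its OVE-D6 values, 9.03, 8.68 and 8.67, were below its D6 values, 9.38, 9.41 and 9.62. All 5 were lower in OVE against FVB, by 0.57 to 0.85, which their choice by likeness to Esm1 on the same arrays largely fixed. Among the members, Kdr was nearest to Esm1, at the 189th place of all tested genes (0.47), and Vegfa followed at the 378th (0.50). The nearest to Cdh5 were Aldh3b2 (0.055), Parl (0.069), Timm50 (0.071), Blmh (0.072) and Tmem205 (0.073), where Cdh5 deviated by 0.15 from its own mean. Pecam1 stood nearest to Cdh5 among the members, at the 479th place (0.12).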

How the data were processed

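RNA from 12 kidneys, 3 per group and 1 mouse per array, was labelled from 100 ng with whole-transcript kits, per the labels' protocols. Each deposited value is a probe-set summary on the log2 scale. How probes were summarised and arrays normalised is not given in the sources used here. Array medians lay between 6.84 and 6.93, and no scaling was added. The p-values measure the spread between single mice. Of 35556 probe sets, 21789 had 1 gene symbol, updated through the gene table of GRCm38.p6 (21698 by Entrez identifier, 3 by accession, 88 as on the platform), 1621 had several and 12146 were not named here. The probe set with the highest mean stood for a gene. A gene was tested if 3 or more arrays read it above the 25th percentile of all probe sets on the same array.

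Groups were compared with limma 3.58.1 (R 4.3.3), using a group-means model over all 12 arrays with eBayes defaults and Benjamini-Hochberg adjustment over all tested genes at 0.05, for 6 comparisons, and the procedure was tested on simulated data. Figures used Python 3.11.15, pandas 2.3.3 and matplotlib 3.10.9. The members, the gene lists and the alternatives were chosen with earlier results of these data known. All members were named, as were up to 4 called genes of each list by smallest p and the 5 genes nearest to each called member; other single values were chosen after they were seen. The alternatives changed the filter, normalisation, probe-set rule, variance model, arrays fitted and replicate block. Some listed genes, among them Selp, Ccl21a, Ren1, Magi2 and Cfd, were not analysed here. Of 6 tested fat tissue markers, 0 were called by limma in any comparison, and 0 had an unadjusted p under 0.05. Their mean varied widely within groups, from 5.71 to 8.11 on the FVB arrays and 6.61 to 7.17 on the D6 arrays. It was 6.94 to 7.57 on the OVE arrays and 6.17 to 8.05 on the OVE-D6 arrays. The lack of calls therefore does not show that fat RNA was equal between arrays, and its part in the member differences was not tested.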

Additional observations from a re-analysis of the deposited data

How the results depend on the processing

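The results were refitted under 22 alternatives, 21 for the averaged comparison and the interaction, 1 of them (each array relative to its mean of other pan-endothelial markers) chosen after seeing the data. Of 60 member results, 35 kept their direction and their side of the threshold in all of them, and of 70 calls among listed and pattern-like genes 32 did. In OVE against FVB 1 member was called, against 0 with only the groups compared, 2 relative to the other endothelial markers and 0 to 3 when 1 array was left out. Averaged over genotype 2 were called, against 1 without the filter, 1 with arrays centred on their medians, 5 relative to the other endothelial markers and 1 to 3 when 1 array was left out. The other 4 comparisons called 0 members in every fit run.

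Members near 0, none of them called, changed sign. Quantile normalisation gave -0.0075 for Flt1 in OVE against FVB and 0.020 for Pecam1 in the interaction. Centring gave -0.00030 for Flt1 in OVE against FVB, 0.012 for Ehd3 in D6 against FVB and -0.0083 for Tek in the interaction. Array weights gave -0.00080 for Flt1 in OVE against FVB, 0.0088 for Emcn and 0.0031 for Angpt2 in OVE-D6 against D6, and 0.026 for Pecam1 in the interaction. The endothelial reference gave -0.10 for Flt1 in OVE against FVB, 0.015 for Pecam1 in OVE-D6 against OVE, 0.024 for Vegfa, 0.040 for Pecam1 and 0.063 for Ehd3 in D6 against FVB, and -0.017 for Tek in the interaction. When 1 array was left out, OVE against FVB ranged from -0.033 to 0.038 for Flt1 and -0.207 to 0.030 for Ehd3. OVE-D6 against OVE ranged from -0.128 to 0.010 for Pecam1, -0.020 to 0.143 for Cdh5, -0.201 to 0.036 for Ehd3 and -0.031 to 0.0985 for Emcn. D6 against FVB ranged from -0.014 to 0.061 for Flt1, -0.151 to 0.072 for Pecam1 and -0.066 to 0.074 for Ehd3. OVE-D6 against D6 ranged from -0.033 to 0.047 for Emcn, -0.101 to 0.0048 for Tek and -0.374 to 0.222 for Angpt2. The interaction ranged from -0.115 to 0.108 for Pecam1, -0.186 to 0.051 for Ehd3, -0.054 to 0.062 for Tek and -0.137 to 0.459 for Angpt2. The cause was not tested.

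Over all tested genes, OVE against FVB called 1200 (808 higher), 440 with only the groups compared, 1775 (490 higher) with the endothelial reference and 359 to 1901 without 1 array. OVE-D6 against OVE called 38, 91 with array weights, 0 with only the groups compared (1975 at an unadjusted p under 0.05 by limma), 4 with the endothelial reference and 1 to 668 without 1 array. D6 against FVB called 2, and 1 to 4 elsewhere. OVE-D6 against D6 called 47 (30 higher), 76 with eBayes trend and robust, 87 with array weights, 125 (19 higher) with the endothelial reference and 17 to 74 without 1 array. The interaction called 0, and up to 377 without 1 array (OVE replicate 3). The averaged comparison called 1260 (740 higher), 4179 (399 higher) with the endothelial reference and 657 to 1916 without 1 array. Replicate numbers did not pair the arrays: 18 same-numbered pairs correlated at -0.25 to 0.12, and 1 of 12 arrays correlated best with its own number. With a replicate block, 1 member was called in OVE against FVB and 2 averaged over genotype, with 7 genes in OVE-D6 against OVE and 29 in OVE-D6 against D6. All members lay above the olfactory receptor level of 5.93 on every array. Esm1 came nearest to it, at 6.82 on OVE replicate 1, where array medians were 6.84 to 6.93. The effect of low signal on its difference was not tested.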
